A study of Mus musculus with 20 samples.

Results

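Transcript levels of 10 genes of the unfolded protein response were described over all 20 libraries of a mouse liver regeneration series. They were the rows of a table of 54532 genes whose Ensembl identifiers carry the listed symbols, and they fall into 2 arms. The chaperone arm, driven by ATF6 and XBP1, holds 7 genes (Hspa5, Hsp90b1, Xbp1, Dnajb9, Herpud1, Sdf2l1 and Creld2), and the ATF4-CHOP arm holds 3 (Atf4, Ddit3 and Trib3). All 10 passed the filter on low values, with 13162 genes in all. A second identifier with the symbol Ddit3 was listed at 0 in every library and was not used. The groups, all C57BL/6 with 2 libraries each, were hepatocyte organoids (Hep-Org, hepatocytes embedded in Matrigel and passaged), liver 6, 12, 24, 48 and 72 h and 7, 14 and 21 d after partial hepatectomy (PHx, in which 70% of the liver is cut away), and undamaged liver. Per the growth protocol the liver RNA came from freshly isolated hepatocytes. The labels give neither age nor sex, nor whether the libraries of a group are separate animals or cultures, so p-values measure only how far these samples spread, and that spread may be technical.

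Secreted and membrane proteins fold in the endoplasmic reticulum (ER), and hepatocytes, which secrete most plasma proteins, carry a large load of them. When unfolded proteins accumulate, 3 sensors in the ER membrane respond. ATF6 is cut to release a transcription factor, IRE1 splices the Xbp1 transcript so that it encodes the active factor XBP1s, and both factors induce chaperones and degradation genes of the ER. PERK phosphorylates eIF2alpha, which slows translation in general but raises that of ATF4, and ATF4 in turn induces CHOP (the product of Ddit3) and genes of amino acid supply. Other kinases reach ATF4 by the same step, so that its targets also respond to amino acid shortage. Transcript levels report neither the cleavage of ATF6 nor the translation of Atf4, and a table per gene does not separate spliced from unspliced Xbp1.

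The promoters of 4 of the 7 chaperone genes hold letters through which ATF6 and XBP1 are known to act, and these 4 are shown for that reason. The ER stress element (ERSE) is CCAAT and, 9 bases on, CCACG. ERSE-II is ATTGG and CCACG with 1 base between, the XBP1 element searched was TGACGTGG, and the ATF4 and CHOP composite element (CARE) was TGATGNAA. Both strands were searched, and CCACG is part of both ERSE forms. All 10 genes matched an entry of the RefSeq promoter table (GRCm38.p6, 250 bases before to 50 bases after the start). The 250 bases before the start are printed on the strand of the gene, 5′ to 3′, with ERSE, ERSE-II and CARE matches in capitals. The windows are chr2:34771840-34772089 on the plus strand, chr10:86705445-86705694 on the minus strand, chr15:88819396-88819645 on the plus strand and chr8:94386179-94386428 on the plus strand. All 4 lie upstream of the RefSeq transcript start, and the GENCODE M21 gene models of Hspa5 and Hsp90b1 begin inside them.
Hspa5: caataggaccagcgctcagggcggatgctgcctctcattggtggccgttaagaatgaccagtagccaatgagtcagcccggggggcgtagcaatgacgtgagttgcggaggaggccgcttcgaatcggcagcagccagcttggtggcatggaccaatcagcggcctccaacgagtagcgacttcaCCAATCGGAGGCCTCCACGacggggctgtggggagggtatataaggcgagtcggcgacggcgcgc
Hsp90b1: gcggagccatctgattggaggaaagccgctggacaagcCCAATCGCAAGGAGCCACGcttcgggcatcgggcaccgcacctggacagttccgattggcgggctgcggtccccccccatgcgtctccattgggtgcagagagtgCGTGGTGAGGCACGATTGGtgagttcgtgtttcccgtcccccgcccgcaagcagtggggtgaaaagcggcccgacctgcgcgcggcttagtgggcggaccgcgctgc
Creld2: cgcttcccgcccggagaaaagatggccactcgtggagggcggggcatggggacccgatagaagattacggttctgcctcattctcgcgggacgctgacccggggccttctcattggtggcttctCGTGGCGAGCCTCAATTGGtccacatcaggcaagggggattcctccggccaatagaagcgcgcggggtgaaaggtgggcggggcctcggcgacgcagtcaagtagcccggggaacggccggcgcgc
Herpud1: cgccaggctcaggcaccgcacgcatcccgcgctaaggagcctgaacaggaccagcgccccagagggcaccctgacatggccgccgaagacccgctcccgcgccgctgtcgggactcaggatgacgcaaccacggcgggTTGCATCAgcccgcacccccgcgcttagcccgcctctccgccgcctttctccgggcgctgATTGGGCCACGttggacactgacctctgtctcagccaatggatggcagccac
ERSE was present in 3 of the 10 promoters, once in Hspa5, 2 times in Hsp90b1 and once in Creld2 on the opposite strand, against 0.119% of 32851 mouse promoters. ERSE-II was present in Herpud1 alone, against 0.0365% of all promoters. CARE was present in Herpud1, on the opposite strand, and in Trib3, where it begins 14 bases after the start, against 3.97% of all promoters. TGACGTGG was in none of the 10 (0.676% of all promoters), and CCACG by itself was in 7 (32.8% of all promoters). A match describes letters in a window and was not tested as a binding site.

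Levels are FPKM (by definition, fragments scaled to exon length and library depth) as the authors deposited them. They trace back to depths of 13.7 to 41.4 M reads per library, but were not scaled by these depths alone. FPKM times exon length came to 91.9 per read in undamaged replicate 2 (21.1 M reads) and 48.8 in undamaged replicate 1 (22.1 M). In Hep-Org replicate 1 (22.9 M) it came to 22.9. FPKM summed to 167676 and 184765 in the Hep-Org libraries, against 326835 to 988797 in the 18 liver libraries, so that scaling decides part of what follows. Replicate 2 of each PHx time (8 libraries) belongs to a second submission and the other 12 libraries to the first. The 12 hepatocyte identity genes summed to 804 to 4125 FPKM in Hep-Org, against 22708 to 77199 in liver, and 6 biliary markers to 2729 to 4444 FPKM in Hep-Org, against 5.39 to 335 in liver. In Hep-Org nearly all of that biliary sum was 1 gene, Spp1 (4416 and 2695 FPKM), as it was in undamaged replicate 2 (333 FPKM). Krt19, another of the 6, was at 9.80 and 17.3 FPKM in Hep-Org and at most 2.99 in liver. In bulk RNA, fewer cells of a type and less RNA per cell cannot be told apart. Xist, which marks female cells, was at 13.6 to 25.3 FPKM in the 48 h, 72 h and 7 d libraries and Hep-Org replicate 2, and at or below 0.137 FPKM in the others, so sex and these times cannot be told apart. A gene was called where its log2 difference was 1 or more in size and its Benjamini-Hochberg adjusted p was under 0.05, in limma on log2(FPKM + 1) with a term for submission. With that term, fitted differences from undamaged liver or Hep-Org are not exactly those of the group means.

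The 2 undamaged libraries stood apart from each other in the chaperone arm. Creld2, an ER-resident protein induced by ER stress, was at 268 FPKM in undamaged replicate 2, against 27.2 in undamaged replicate 1. Hspa5 (the ER chaperone BiP) was at 822 FPKM in replicate 2, against 245 in replicate 1. All 7 chaperone genes were at least 2-fold higher in replicate 2 (2.26-fold for Herpud1 to 9.86-fold for Creld2), as were 20.9% of all tested genes, and so was Ddit3 (2.71-fold). Atf4 differed by 1.13-fold and Trib3 by 1.47-fold. The acute-phase gene Saa1 was at 20927 FPKM in replicate 2, against 19.9 in replicate 1, while Clec4f, a gene of Kupffer cells, was at 183 FPKM in replicate 2, against 9.16 in replicate 1. The 11 acute-phase genes summed to 122276 FPKM in replicate 2, against 6593 in replicate 1, and the 10 Kupffer cell and macrophage genes to 1124 FPKM, against 45.0. FPKM summed to 2.11 times as much in replicate 2 as in replicate 1, and after scaling both to the same sum 3 of the 10 genes (Dnajb9, Sdf2l1 and Creld2) were still at least 2-fold higher. The part of these differences in the results below was not tested beyond leaving each library out.

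**Figure D1:**
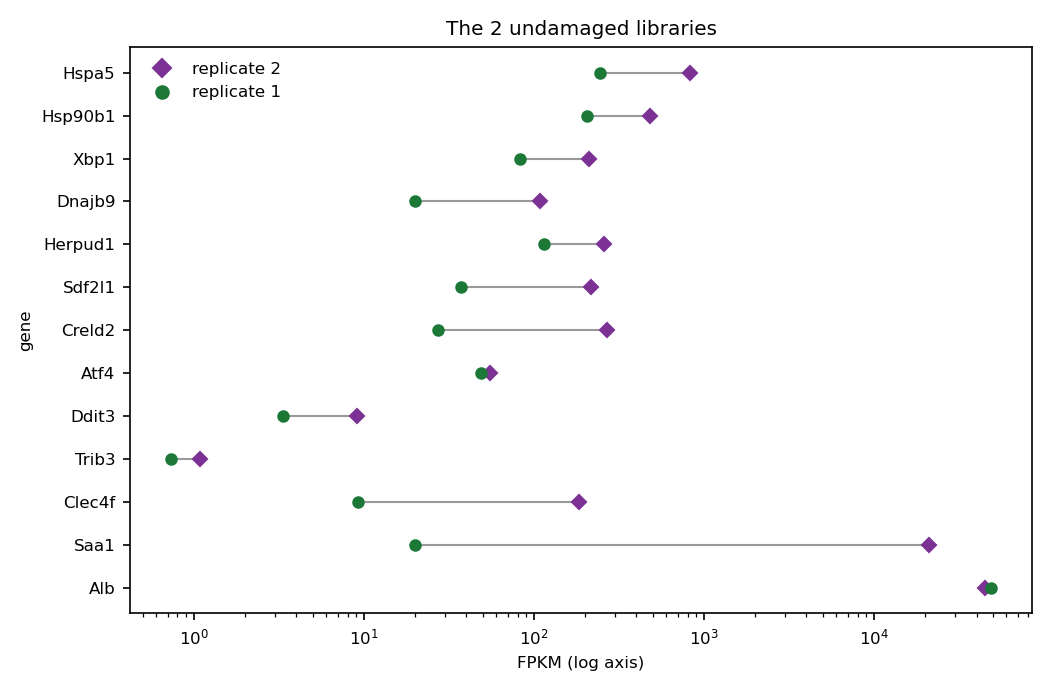
FPKM (log axis) of the 10 unfolded protein response genes, Clec4f, Saa1 and Alb in undamaged replicate 2 (purple diamonds) and replicate 1 (green circles), with a grey line joining the libraries. The 7 chaperone genes lie 2.26 to 9.86 times higher in replicate 2, whereas Atf4 differs by 1.13-fold.

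The members spanned a wide range of levels. Hspa5 had 90.7 to 994 FPKM over the 20 libraries and 13201 to 93144 reads. Trib3 had 0.174 to 4.63 FPKM, which rests on 6 to 430 reads, and Ddit3 rests on 58 to 744 reads. The order of the 10 group means was loose for each gene: of the 9 neighbouring pairs in that order, the libraries overlapped in 6 to 8. Of the 7 chaperone genes, 5 had their highest PHx mean at 12 h, Xbp1 had it at 6 h and Herpud1 at 14 d. Of the ATF4-CHOP genes, Atf4 and Ddit3 had it at 6 h and Trib3 at 14 d. The share of all tested genes with their highest PHx mean at each time was not counted.

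**Figure D2:**
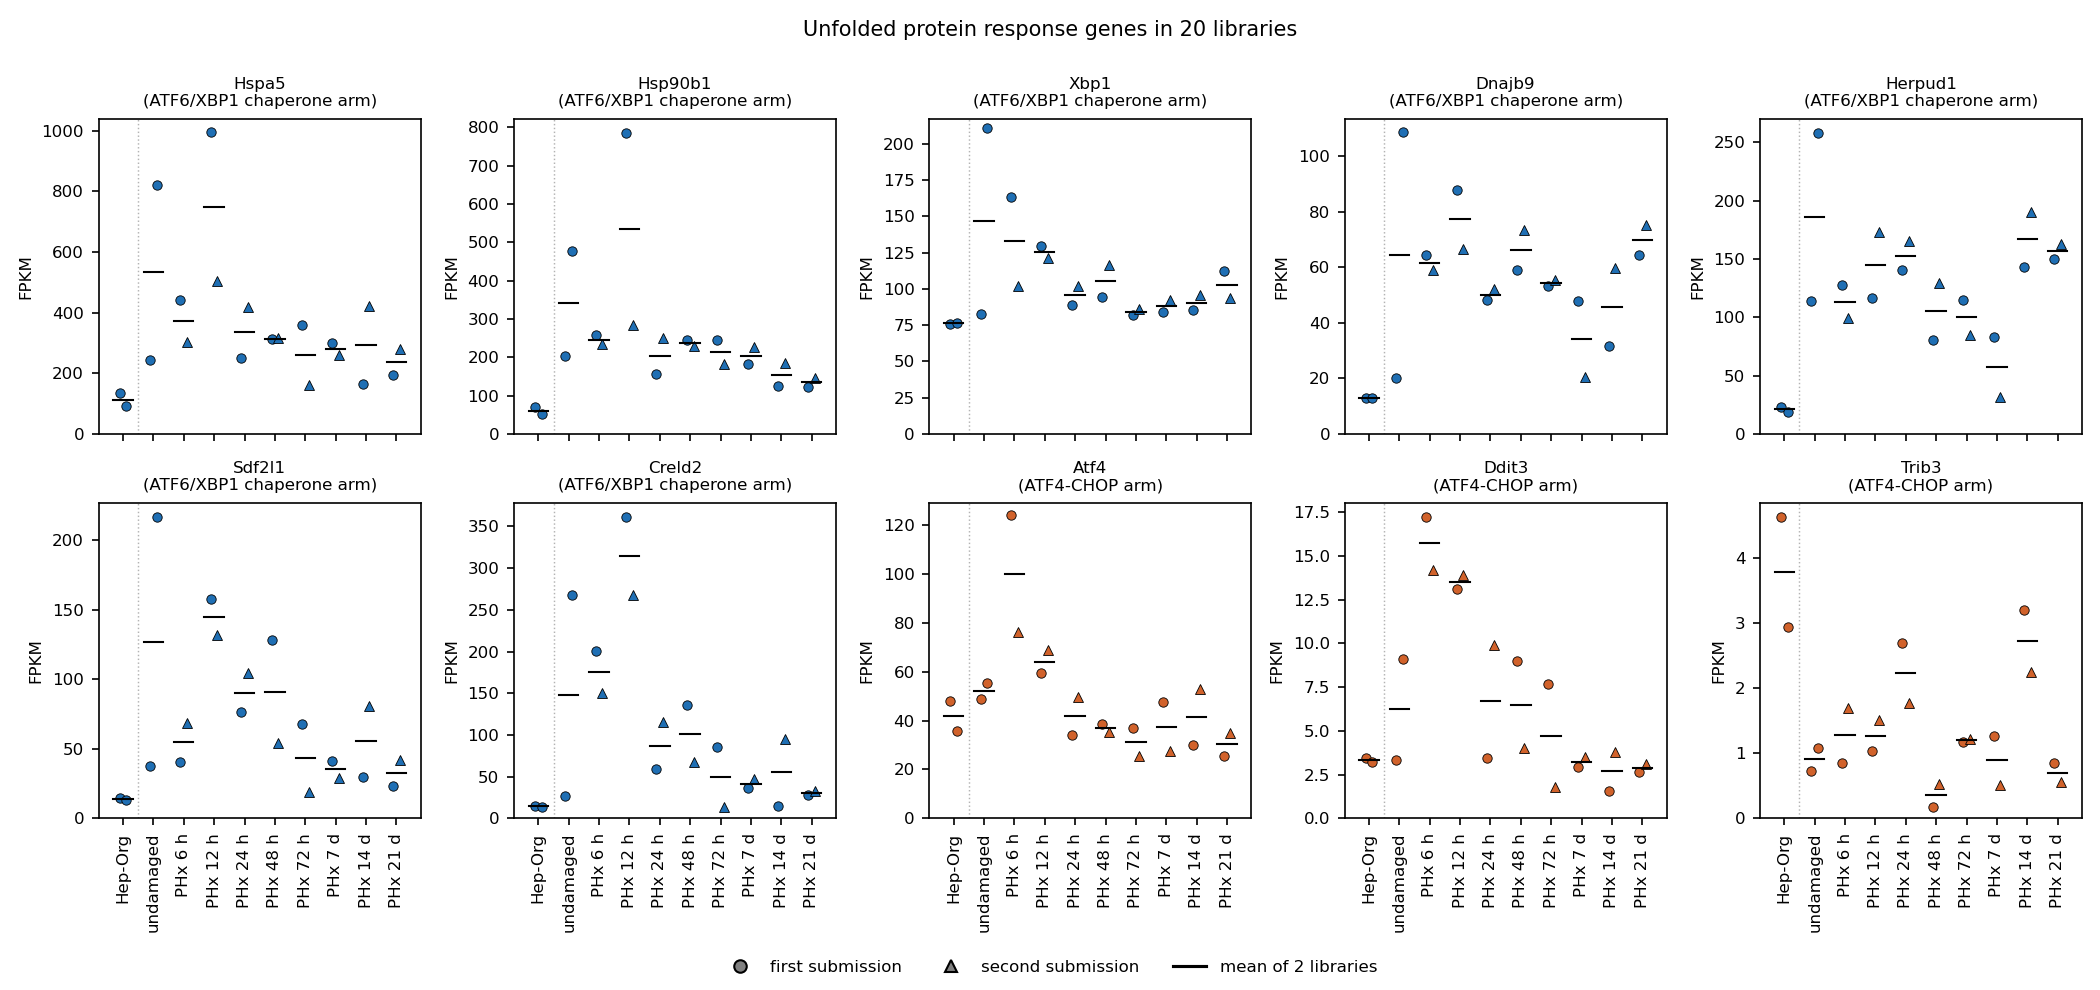
FPKM of each gene in the 20 libraries, with Hep-Org left of the dotted line and undamaged liver and the PHx times right of it; circles are first-submission and triangles second-submission libraries, and bars are means of 2. Creld2, Hsp90b1 and Hspa5 have their highest library at 12 h, Atf4 and Ddit3 at 6 h and Trib3 in Hep-Org, and the undamaged libraries are far apart for every chaperone gene.

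After PHx the levels of Creld2, Hsp90b1, Hspa5 and Sdf2l1 were highest at 12 h, with both libraries of that time above all other PHx libraries. The share of all tested genes with such a peak was not counted. Creld2 was at 27.2 and 268 FPKM in undamaged liver, 201 and 150.02 at 6 h, 361 and 268 at 12 h, 58.5 and 116 at 24 h, 136 and 66.9 at 48 h, 85.0 and 13.1 at 72 h, 35.7 and 46.8 at 7 d, 15.3 and 95.5 at 14 d, and 27.4 and 33.1 at 21 d. Both 12 h libraries were close to or above undamaged replicate 2. Hsp90b1, the ER form of HSP90 (GRP94), was at 205 and 478 FPKM in undamaged liver, 258 and 235 at 6 h, 786 and 285 at 12 h, 157 and 252 at 24 h, 246 and 231 at 48 h, 246 and 183 at 72 h, 182 and 226 at 7 d, 126 and 185 at 14 d, and 124 and 147 at 21 d. The first 12 h library stood far above the second, and every 14 and 21 d library was below both. Hspa5 was at 245 and 822 FPKM in undamaged liver, 440.0 and 304 at 6 h, 994 and 503 at 12 h, 252 and 419.8 at 24 h, 314 and 315 at 48 h, 358 and 163 at 72 h, 298 and 259.8 at 7 d, 164 and 423 at 14 d, and 195 and 281 at 21 d. The 14 d libraries differed 2.57-fold and spanned nearly the whole range from 72 h on.

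Sdf2l1, an ER protein that associates with BiP and its J-domain partners, was at 37.4 and 217 FPKM in undamaged liver, 40.6 and 68.5 at 6 h, 158 and 132 at 12 h, 76.1 and 105 at 24 h, 128 and 54.2 at 48 h, 67.7 and 19.0 at 72 h, 41.2 and 29.1 at 7 d, 29.5 and 81.0 at 14 d, and 22.9 and 42.0 at 21 d. Both 12 h libraries were above the other PHx libraries, as for Creld2. In the 3 remaining chaperone genes the 12 h libraries did not both stand above the other PHx libraries. Herpud1, a membrane protein of ER-associated degradation, was at 114 and 258 FPKM in undamaged liver, 127 and 99.5 at 6 h, 116 and 174 at 12 h, 140.3 and 166 at 24 h, 80.5 and 129.8 at 48 h, 115 and 85.3 at 72 h, 83.5 and 31.96 at 7 d, 143 and 191 at 14 d, and 149.8 and 163 at 21 d. Its lowest PHx mean was at 7 d and its highest at 14 d. Dnajb9 (the BiP co-chaperone ERdj4) was at 20.02 and 109 FPKM in undamaged liver, 64.4 and 59.1 at 6 h, 88.0 and 66.6 at 12 h, 48.2 and 52.1 at 24 h, 59.2 and 73.6 at 48 h, 53.2 and 55.5 at 72 h, 47.8 and 20.6 at 7 d, 31.7 and 59.9 at 14 d, and 64.5 and 75.3 at 21 d. Xbp1 kept within 82.3 to 163 FPKM in the 16 PHx libraries, against 82.6 and 210 FPKM in undamaged liver.

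None of the 10 genes was called between any PHx time and undamaged liver. The share of all tested genes called higher and lower was 4.62% and 6.29% at 6 h, 0.935% and 2.15% at 12 h, 0% and 0% at 24 h, 0.144% and 0.266% at 48 h, 0.365% and 0.524% at 72 h, 0.236% and 0.190% at 7 d, and 0% and 0% at both 14 d and 21 d. At an unadjusted p under 0.05 limma gave 1 of the 10 at 6 h, 24 h, 7 d and 14 d each and 0 at the other 4 times. The share of all genes under that unadjusted p was not counted. With voom on the recovered reads, 0 of 10 were likewise called at each of the 8 times. The intervals were wide: at 12 h the log2 difference of Creld2 was 1.86 with a 95% confidence interval of -0.54 to 4.25, and that of Hspa5 was 0.67 with -0.82 to 2.15. The median of the 7 chaperone genes was 0.67 at 12 h and -0.92 at 21 d, beside medians of all genes of 0.01 and -0.02. For some genes the direction depended on which undamaged library was left out: Creld2 at 6 h was at -0.61 without replicate 1 and at 2.65 without replicate 2.

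Set against the 4 libraries of 14 and 21 d, which hold no undamaged library, 2 of 7 chaperone genes were called higher at 12 h, and so was 1 of 3 genes of the ATF4-CHOP arm, beside 3.77% of all genes called higher and 4.16% lower. This comparison was added after the values were seen, because most chaperone genes peaked at 12 h, so its calls describe the size of a pattern already chosen and are no separate evidence for it. Creld2 averaged 314 ± 65.8 FPKM at 12 h (SD, n = 2) and 42.8 ± 35.9 at 14 to 21 d (n = 4), a log2 difference of 3.15 ± 0.93 (SE; limma adjusted p = 0.0451). Hsp90b1 averaged 536 ± 354 FPKM at 12 h and 145 ± 28.2 at 14 to 21 d, a log2 difference of 1.72 ± 0.46 (adjusted p = 0.0323). Without 12 h replicate 1 that difference was 0.91 (adjusted p = 0.322), so that 1 library decides its size. Without 12 h replicate 1, 14 d replicate 1 or either 21 d library, 0 of the 10 genes were called at 12 h, and without 12 h replicate 2 only Hsp90b1 was. The call of Creld2 was lost in 17 of 28 alternative settings, that of Ddit3 in 8 and that of Hsp90b1 in 7, and the difference of Creld2 was 2.41 to 4.07 over all of them (adjusted p = 0.0211 to 0.240). Within the first submission, with 1 library per time, the differences were 4.07 for Creld2 (adjusted p = 0.240), 2.65 for Hsp90b1 (adjusted p = 0.188) and 2.20 for Ddit3 (adjusted p = 0.184). Hspa5 (1.503, adjusted p = 0.107) and Sdf2l1 (1.86, adjusted p = 0.103) missed the threshold although both 12 h libraries were above the 4 late ones, and Xbp1, Dnajb9 and Herpud1 had differences of 0.38, 0.47 and -0.18. Acute-phase genes summed to 32140 to 71488 FPKM at 12 h, against 5015 to 23935 at 14 to 21 d, and erythroid genes to 137 to 6438 FPKM at 12 h, against 36.8 to 168.2. Mitochondrial reads were 12.6% and 23.0% of the 12 h libraries. Their part in the result was not tested. At 6 h against the same 4 libraries 0 of 7 chaperone genes were called, with Creld2 at 2.31 ± 0.93 (adjusted p = 0.0877), beside 8.33% of all genes called higher and 7.54% lower.

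The transcripts of Atf4 and Ddit3 rose at 6 h relative to 14 to 21 d, and Trib3 was not called. Atf4, the transcription factor at the head of the arm, was at 48.9 and 55.3 FPKM in undamaged liver, 124 and 76.1 at 6 h, 59.3 and 68.8 at 12 h, 34.2 and 49.5 at 24 h, 38.5 and 35.3 at 48 h, 36.9 and 25.5 at 72 h, 47.6 and 27.4 at 7 d, 30.1 and 52.8 at 14 d, and 25.3 and 35.1 at 21 d. Both 6 h libraries were above the other 16 liver libraries, undamaged replicate 2 included. Ddit3, which encodes the pro-apoptotic factor CHOP, was at 3.36 and 9.12 FPKM in undamaged liver, 17.3 and 14.2 at 6 h, 13.1 and 13.9 at 12 h, 3.47 and 9.90 at 24 h, 8.99 and 4.01 at 48 h, 7.67 and 1.77 at 72 h, 2.95 and 3.496 at 7 d, 1.58 and 3.77 at 14 d, and 2.66 and 3.12 at 21 d. The 4 libraries of 6 and 12 h were the highest of all 20. How many of all tested genes separate in the way of Atf4 or of Ddit3 was not counted.

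At 6 h the log2 difference from 14 to 21 d was 2.17 ± 0.50 for Ddit3 (limma adjusted p = 0.00910), with 15.7 ± 2.15 FPKM at 6 h (n = 2) and 2.78 ± 0.921 at 14 to 21 d (n = 4). For Atf4 it was 1.47 ± 0.35 (adjusted p = 0.0103), with 100.1 ± 33.9 FPKM at 6 h and 35.8 ± 12.0 at 14 to 21 d. At 12 h Ddit3 was again higher than at 14 to 21 d (1.97 ± 0.50, adjusted p = 0.0269), and Atf4 was not called (0.87 ± 0.35, adjusted p = 0.124). Within the first submission, with 1 library per time, the differences at 6 h were 2.57 for Ddit3 (adjusted p = 0.0878) and 2.13 for Atf4 (adjusted p = 0.0680). In the second submission Ddit3 was at 14.2 FPKM at 6 h, against 3.77 at 14 d and 3.12 at 21 d, and Atf4 was at 76.1 FPKM at 6 h, against 52.8 and 35.1. Both calls are lost without 6 h replicate 1 (2.05, adjusted p = 0.0740 for Ddit3, and 1.08, adjusted p = 0.124 for Atf4). Other cell types moved with the 6 h libraries: 6 erythroid genes summed to 581 to 7089 FPKM at 6 h, against 36.8 to 168.2 at 14 to 21 d, and 9 neutrophil genes to 114 to 839 FPKM at 6 h, against 3.06 to 76.9. Mitochondrial reads were 20.9% and 40.7% of the 6 h libraries, against 4.13% to 8.41% of the 14 and 21 d libraries. The part of either in the result was not tested.

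Trib3, a pseudokinase induced by ATF4 and CHOP, was at 0.734 and 1.08 FPKM in undamaged liver, 0.845 and 1.70 at 6 h, 1.04 and 1.51 at 12 h, 2.70 and 1.77 at 24 h, 0.174 and 0.533 at 48 h, 1.18 and 1.23 at 72 h, 1.27 and 0.514 at 7 d, 3.21 and 2.26 at 14 d, and 0.843 and 0.563 at 21 d. Its highest PHx libraries were those of 14 d and 24 h replicate 1, not those of 6 and 12 h. The log2 difference between 6 h and 14 to 21 d was -0.17 ± 0.25 (limma adjusted p = 0.666). Over the 8 PHx times none of the 10 genes was called, although 9.51% of all genes were. At an unadjusted p under 0.05 limma gave 3, which were the ATF4-CHOP genes: Trib3 with a range of fitted means of 1.46 (adjusted p = 0.0509), Ddit3 with 2.25 (adjusted p = 0.0856) and Atf4 with 1.67 (adjusted p = 0.0999). The share of all genes under that unadjusted p was not counted, so these 3 are not set apart from other genes. Creld2 had the widest range of the 10, 3.33 (adjusted p = 0.233), and voom on the recovered reads also called 0.

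In Hep-Org the chaperone arm was low. Herpud1 was at 23.1 and 19.0 FPKM in Hep-Org, and the lowest of 18 liver libraries, 7 d replicate 2, had 31.96. Dnajb9 was at 12.9 and 13.0 FPKM in Hep-Org, against a lowest liver value of 20.02 in undamaged replicate 1. Hsp90b1 was at 71.2 and 51.2 FPKM in Hep-Org, against a lowest liver value of 124 at 21 d. In these 3 genes the Hep-Org libraries lay below every liver library. So did those of Hspa5, with 135 and 90.7 FPKM in Hep-Org and at least 163 in liver, of Sdf2l1, with 14.3 and 13.3 FPKM in Hep-Org and at least 19.0 in liver, and of Xbp1, with 76.1 and 76.2 FPKM in Hep-Org and at least 82.3 in liver. For Creld2 the Hep-Org libraries had 14.8 and 13.8 FPKM, and 72 h replicate 2 was lower, at 13.1. In all, 6 of 7 chaperone genes and 0 of 3 ATF4-CHOP genes had both Hep-Org libraries below all liver libraries, as had 16.0% of all tested genes. None of the 10 had both above, as had 14.9% of all genes.

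Against undamaged liver 5 of 7 chaperone genes fell in Hep-Org, while 13.2% of all tested genes were called lower and 10.3% higher. Herpud1 had the largest difference of the 10, -2.98 ± 0.51 on the log2 scale (limma adjusted p = 0.000887), with 21.0 ± 2.91 FPKM in Hep-Org and 186 ± 102 in undamaged liver (SD, n = 2 each). Sdf2l1 (-2.63, adjusted p = 0.0274), Hsp90b1 (-2.36, adjusted p = 0.00542), Hspa5 (-2.01, adjusted p = 0.0369) and Dnajb9 (-1.78, adjusted p = 0.0468) were the other 4. Creld2 had -2.51 ± 1.07 (adjusted p = 0.0957) and Xbp1 -0.79 ± 0.41 (adjusted p = 0.170). Without undamaged replicate 2, the library with high chaperone transcripts, the differences were -1.75 for Hsp90b1 (adjusted p = 0.0531), -1.38 for Sdf2l1, -1.14 for Hspa5 and -0.59 for Dnajb9, and Herpud1 was the 1 chaperone gene still called. Without undamaged replicate 1, Creld2 (-4.13, adjusted p = 0.0150) and Xbp1 (-1.45, adjusted p = 0.0156) were called too. Hspa5, Dnajb9 and Sdf2l1 lost their call without either Hep-Org library (adjusted p = 0.0906 to 0.185), and Hsp90b1 without Hep-Org replicate 2 (adjusted p = 0.0524). Over 28 alternative settings the call of Dnajb9 was lost in 19 with the same direction and reversed in 1, against 6 lost for Hspa5 and Sdf2l1 each, 4 for Hsp90b1 and 1 for Herpud1.

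Against 14 to 21 d, which does not rest on the undamaged libraries but shares the Hep-Org libraries, 2 of 7 chaperone genes were lower in Hep-Org, beside 13.4% of all genes lower and 11.4% higher. Herpud1 had -2.89 ± 0.46 (limma adjusted p = 0.000408), with 21.0 ± 2.91 FPKM in Hep-Org (n = 2) and 162 ± 21.0 at 14 to 21 d (n = 4). Dnajb9 had -2.01 ± 0.56 (adjusted p = 0.0146), with 13.0 ± 0.101 FPKM in Hep-Org and 57.8 ± 18.6 at 14 to 21 d, a call lost without either Hep-Org library. Hsp90b1 had -1.26 (adjusted p = 0.0589) and the other 4 had -0.34 to -1.46, so that each of the 7 was on the lower side. The 12 hepatocyte identity genes moved with them: all 12 were lower in Hep-Org than in undamaged liver, with a median of -6.09, and the part of this change of cell state in the chaperone result was not tested.

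In the ATF4-CHOP arm Trib3 was called higher in Hep-Org, and Atf4 and Ddit3 were not called. Atf4 was at 47.8 and 35.6 FPKM in Hep-Org, within the range of the liver libraries (25.3 to 124), and Ddit3 was at 3.47 and 3.20 FPKM in Hep-Org, within 1.58 to 17.3 in liver. Their differences from undamaged liver were -0.33 (95% confidence interval -1.20 to 0.55) and -0.62 (-1.88 to 0.65). Trib3 rose, to 4.63 and 2.95 FPKM in Hep-Org, against 0.734 and 1.08 in undamaged liver, a log2 difference of 1.31 ± 0.29 (limma adjusted p = 0.00451). Hep-Org replicate 1 was above all liver libraries, and replicate 2 was exceeded by 14 d replicate 1 at 3.21. The difference of Trib3 from 14 to 21 d was 0.89 ± 0.26 (adjusted p = 0.0186), under the fold required for a call. Without Hep-Org replicate 1 the difference from undamaged liver was 1.06 (adjusted p = 0.0638).

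**Figure D3:**
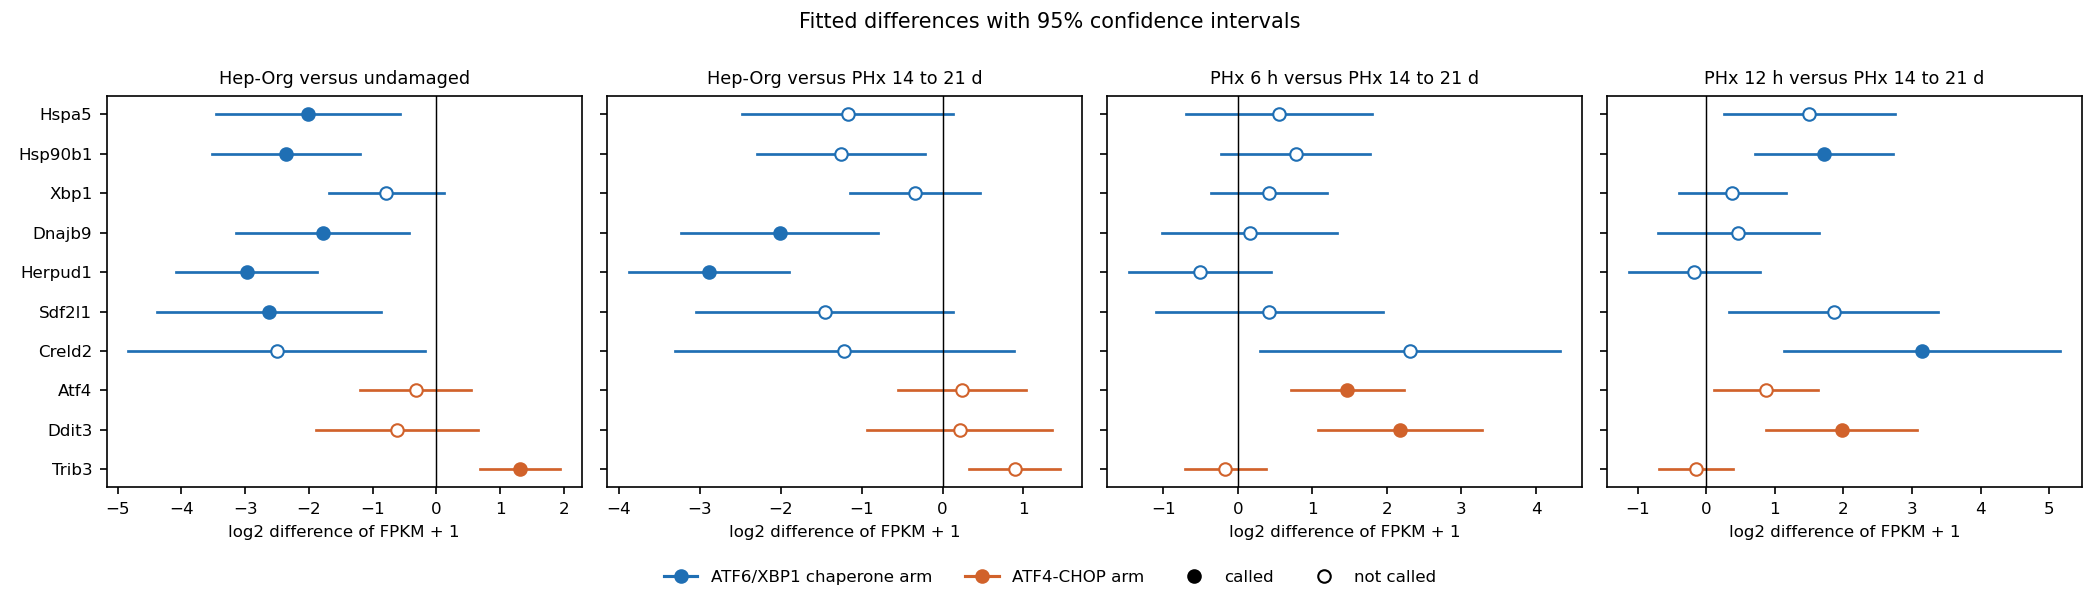
Fitted log2 differences of FPKM + 1 (points) with 95% confidence intervals (lines) for the 10 genes in 4 comparisons, the first-named group minus the second; filled points were called. In both Hep-Org comparisons the 7 chaperone genes lie left of 0, with Herpud1 at -2.98 and -2.89, whereas the called genes of the 6 and 12 h comparisons (Ddit3 and Atf4 at 6 h, Hsp90b1, Creld2 and Ddit3 at 12 h) lie right of it.

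How the libraries are scaled changes the Hep-Org levels of every gene. With all libraries scaled to the same FPKM sum, where 16805 genes passed the filter, the median log2 difference of all tested genes was 1.35 between Hep-Org and undamaged liver, against -0.03 with the deposited values. Between Hep-Org and 14 to 21 d it was 0.99, against -0.02 with the deposited values. On that scale 2 of the 10 genes, Trib3 (3.25) and Atf4 (1.60), were called higher than in undamaged liver, and Herpud1 was at -1.08 (limma adjusted p = 0.0919). All 7 chaperone genes lay below the median of all genes on that scale, with Hspa5 at -0.07, Hsp90b1 at -0.42, Sdf2l1 at -0.75 and Creld2 at -0.62, but Dnajb9 (0.10) and Xbp1 (1.16) turned to the higher side of 0. Against 14 to 21 d on the same scale Herpud1 remained lower (-1.68, adjusted p = 0.00885), and Trib3 (2.28) and Atf4 (1.499) were called higher. At 6 h and at 12 h against 14 to 21 d, 0 of the 10 genes were called on that scale, where Ddit3 at 12 h had 1.81 (limma adjusted p = 0.128). Median-ratio scaling gave the same calls as the deposited values in both Hep-Org comparisons. Its medians of all genes, -0.03 in each, were already nearly those of the deposited values. It therefore could change little and does not decide between the deposited scale and the same FPKM sum.

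In the wider pathway, most called ER genes were lower in Hep-Org and most called ATF4 and CHOP targets were higher. Calls of listed genes beyond the 10 members come from the main setting only, here and below. They were not read at the same FPKM sum or without undamaged replicate 2, both of which changed the calls of the members. Of 18 other ER chaperones and folding enzymes, 12 were lower and 1 was higher in Hep-Org than in undamaged liver, with a median of -1.72, beside 13.2% of all genes lower and 10.3% higher. The lowest included the BiP co-chaperone Dnajc3 (-2.36, limma adjusted p = 0.000439) and the disulfide isomerases Pdia5 (-2.73) and Pdia6 (-2.25), and the 1 higher gene was the ER reductase Dnajc10 (1.59). Of 15 genes of ER-associated degradation, 9 were lower and 0 higher (median -1.56), among them Derl2 (-2.10) and the mannosidase-like Edem1 (-2.28). Of 16 genes of translocation, glycosylation and ER export, 1 was lower (Spcs3, a signal peptidase subunit, -1.25) and 1 higher (the retrieval receptor Kdelr3, 2.82), which is no more than the share of all genes. Of 7 sensors and their activators, 2 were lower, namely Atf6 (-1.12) and Creb3l3 (-5.72), a liver factor cut from the ER membrane like ATF6. The counts against 14 to 21 d were 2 lower and 1 higher of 18 for chaperones, 4 and 0 of 15 for degradation, 0 and 1 of 16 for translocation and export, and 1 and 0 of 7 for sensors, beside 13.4% of all genes lower and 11.4% higher, so that the count of chaperones was near the share of all genes.

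Of 30 other targets of ATF4 and CHOP tested, 13 rose and 2 fell in Hep-Org relative to undamaged liver, with a median of 0.98, beside 10.3% of all genes higher and 13.2% lower. The counts against 14 to 21 d were likewise 13 and 2, beside 11.4% and 13.4%. Phgdh and Psat1, enzymes of serine synthesis, had log2 differences of 5.86 and 4.96 (limma adjusted p = 4.19e-07 and 7.68e-07). Phgdh averaged 71.8 ± 48.2 FPKM in Hep-Org and 0.111 ± 0.157 in undamaged liver, and Psat1 averaged 35.2 ± 7.39 FPKM in Hep-Org and 0.153 ± 0.119 in undamaged liver. Sesn2, a stress-induced regulator of growth signalling, had 2.53. The 2 that fell were Cth (-3.90), a transsulfuration enzyme abundant in liver, and Shmt2 (-1.32). Of the 5 other eIF2alpha kinases and phosphatase subunits, 1 fell (Ppp1r15b, -1.46) and 0 rose.

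After PHx fewer genes of the wider lists were called. At 6 h against 14 to 21 d, 3 of 30 other ATF4 and CHOP targets rose, namely Gdf15 (3.04), a secreted stress cytokine, Nupr1 (1.48) and Gadd45a (1.19), and Cth (-2.60) and Shmt2 (-1.09) fell, counts near the shares of all genes in that comparison (8.33% higher and 7.54% lower). Ppp1r15a, the stress-induced phosphatase subunit that reverses eIF2alpha phosphorylation, rose (1.52 ± 0.30, limma adjusted p = 0.00435), with 7.93 ± 1.93 FPKM at 6 h and 2.17 ± 0.892 at 14 to 21 d. It was also the 1 gene of these lists called over the 8 times (range 1.74, adjusted p = 0.0489). Syvn1, the ubiquitin ligase HRD1 of ER-associated degradation, rose at 6 h (2.24, adjusted p = 0.0276) and at 12 h (2.40, adjusted p = 0.0356) against 14 to 21 d. At 12 h Derl3, a degradation gene induced by XBP1 and ATF6, rose too (2.61, adjusted p = 0.0373), but its 12 h libraries differed widely, at 23.3 ± 25.9 FPKM. Of the 15 degradation genes 1 rose at 6 h, beside 8.33% of all genes, and 2 rose at 12 h, beside 3.77%. Lower at 6 h than at 14 to 21 d were 1 of 18 other ER chaperones and 2 of 15 degradation genes, beside 7.54% of all genes. They included the lectin chaperone Canx (-1.17) and Erlec1 (-1.16). Against undamaged liver Ern1, which encodes IRE1, was lower at 6 h (-1.86, adjusted p = 0.00292), with 2.61 ± 0.960 FPKM at 6 h and 12.0 ± 0.911 in undamaged liver, and so were Atf6 (-1.14), 3 of 18 other ER chaperones and 5 of 15 degradation genes, beside 6.29% of all genes called lower.

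**Figure D4:**
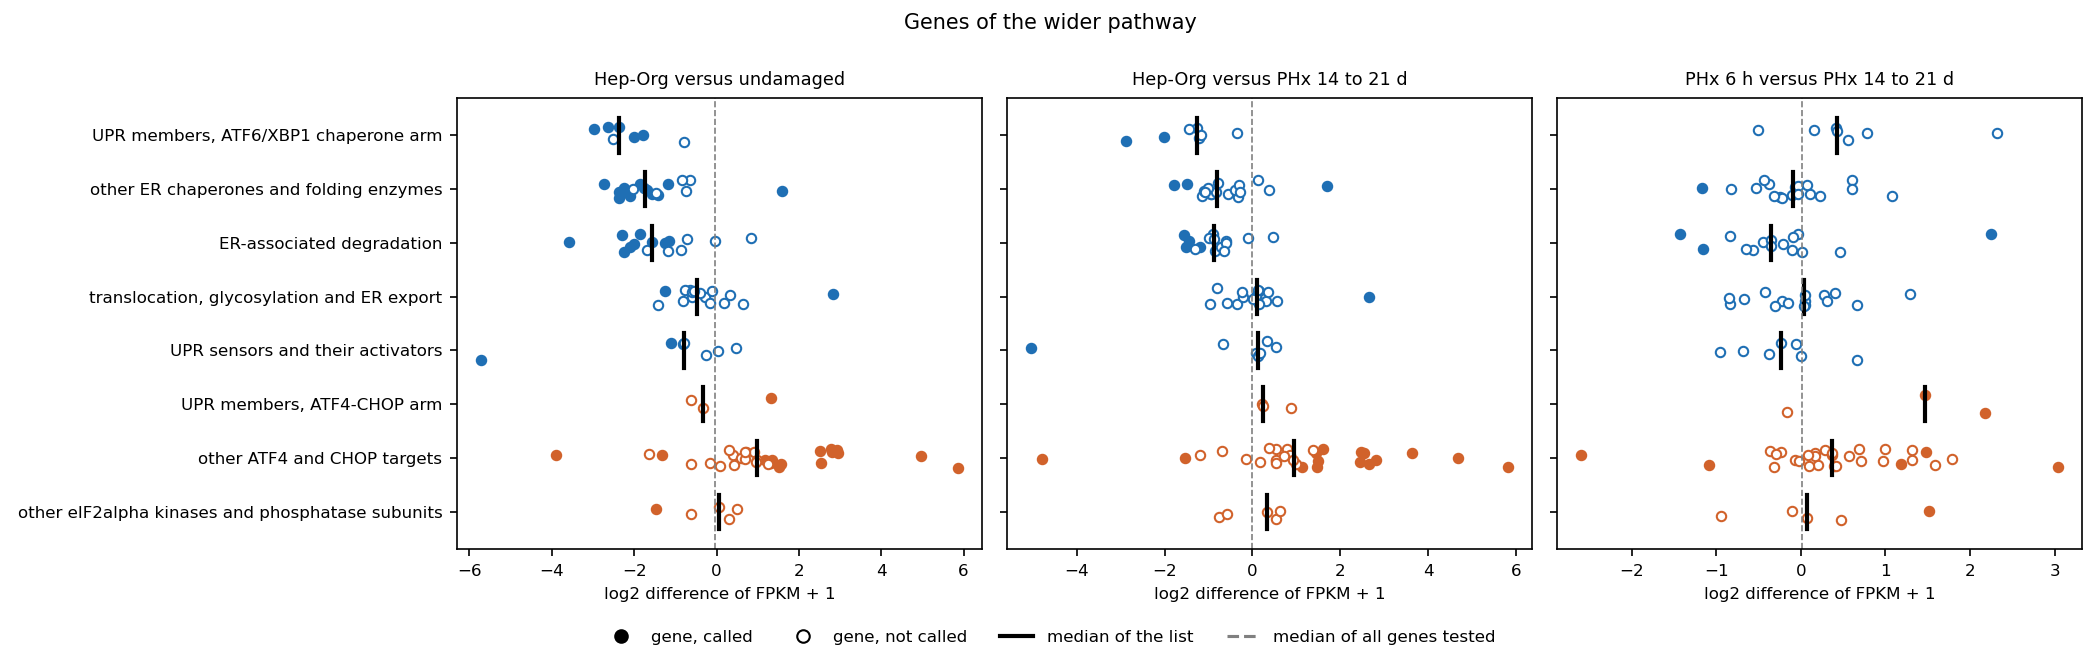
Fitted log2 differences of the genes of 8 lists (1 point per gene, filled where called) in 3 comparisons, the first-named group minus the second, with list medians (black bars) and the median of all tested genes (dashed line). In Hep-Org versus undamaged liver the medians of ER chaperones (-1.72) and ER-associated degradation (-1.56) lie left of 0, and that of other ATF4 and CHOP targets (0.98) lies right of it.

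Within the liver libraries Creld2 followed Hspa5 most closely by each correlation below, though not by the count of replicates that closes the paragraph. The order of Hsp90b1, Sdf2l1 and Ddit3 depended on the measure. Over the 18 liver libraries the log2 level of Hspa5 ran with that of Creld2 (Pearson r = 0.90, Spearman rho = 0.93), Hsp90b1 (0.89 and 0.86) and Sdf2l1 (0.84 and 0.81). Leaving out 12 h replicate 1 and undamaged replicate 2, the 2 libraries farthest from the median of Hspa5, gave r = 0.90, 0.74 and 0.76. For Ddit3 r was 0.75 (rho 0.83, 0.79 without the 2 libraries) and for Atf4 0.63 (rho 0.80, 0.73 without them). Xbp1 (0.70, and 0.50 without them), Dnajb9 (0.58 and 0.37) and Herpud1 (0.36 and 0.28) followed less closely, and Trib3 least (-0.09 and -0.07). These 9 correlations are descriptions over libraries that share groups and scaling and are not tests. The replicate with more Hspa5 also had more Herpud1 in 9 of the 10 groups, Hep-Org included. For Hsp90b1, Dnajb9, Sdf2l1, Creld2 and Atf4 this held in 8 groups each. It held in 7 for Ddit3, 6 for Xbp1 and 4 for Trib3. How many of all tested genes went with Hspa5 as often was not counted, so these counts do not set the members apart.

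The genes most like each arm were taken by the correlation, over all 20 libraries, with the mean scaled level of its members among 4402 candidates with a mean of at least 5 FPKM. For the chaperone arm they were Manf (r = 0.91), a secreted ER stress protein, Slc35b1 (0.89), an ATP and nucleotide sugar transporter of the ER, the BiP co-chaperone Dnajb11 (0.88), the zinc transporter Slc30a5 (0.87) and the fibrinogen chain Fgg (0.87). Manf averaged 157 ± 11.1 FPKM at 12 h and 28.8 ± 5.06 at 21 d, and 14.7 ± 1.17 in Hep-Org. For the ATF4-CHOP arm they were Ppie (0.90), Eif3g (0.89), Lypla2 (0.88), Snrpa (0.87) and Ube2m (0.87), none of which stands in the lists of the pathway. Each member is part of the mean of its own arm, which raises its correlation with that mean. Atf4 followed the mean of its own arm at 0.89, Ddit3 at 0.76 and Trib3 at 0.39, the lowest of the 3. With the chaperone mean, which holds none of the 3, Ddit3 was at 0.69, Atf4 at 0.49 and Trib3 at -0.43.

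**Figure D5:**
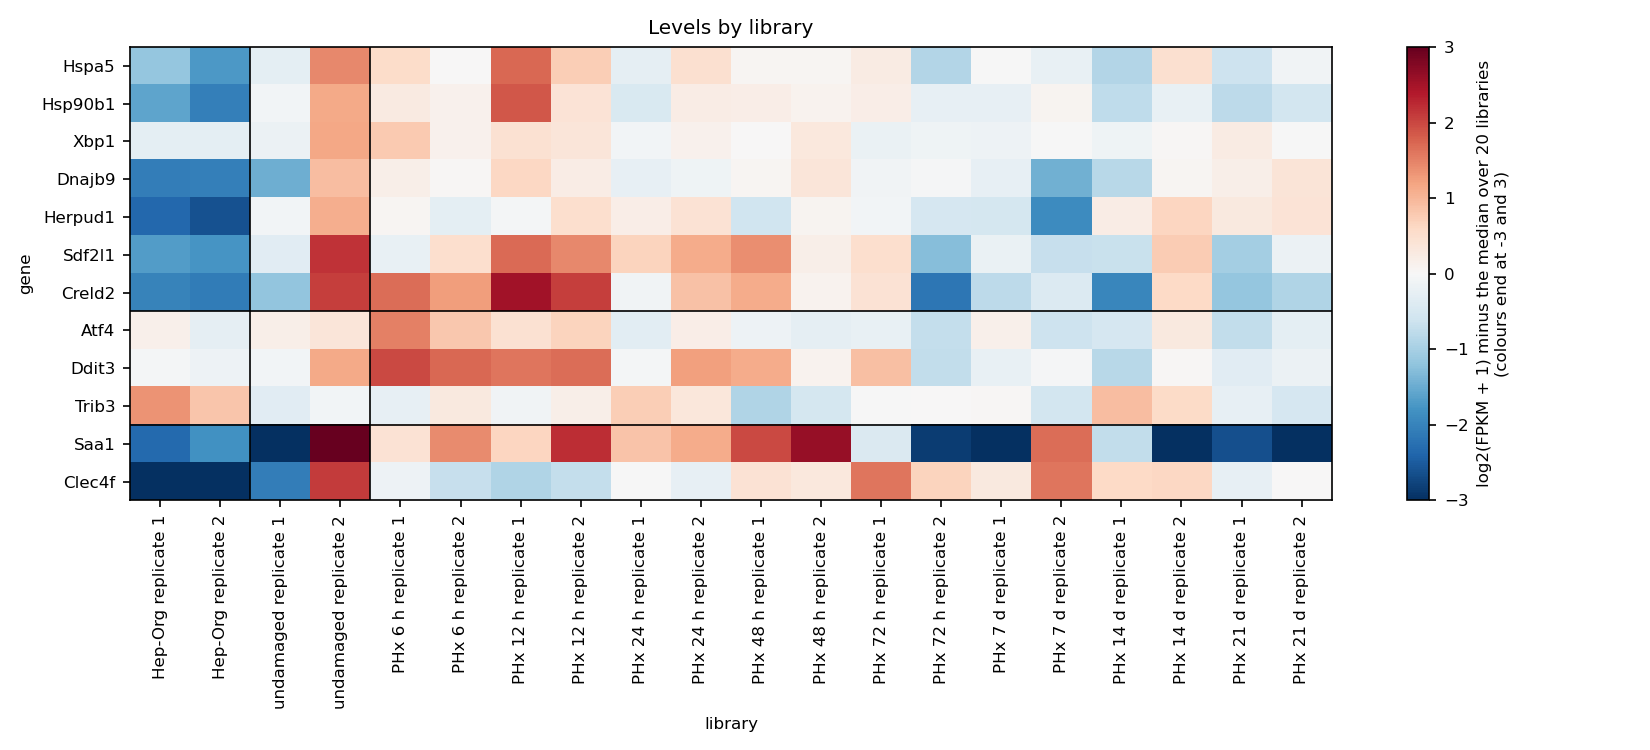
Level of the 10 genes, Saa1 and Clec4f in each library, as log2(FPKM + 1) minus the median of the gene over the 20 libraries (red higher, blue lower; colours end at -3 and 3, which Saa1 and Clec4f exceed). Chaperone genes are blue in both Hep-Org libraries and red in undamaged replicate 2, and at 12 h they are red except for Herpud1 in replicate 1; Atf4 and Ddit3 are red at 6 h, and Trib3 is red in Hep-Org.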

How the data were processed

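Hepatocyte RNA from liver and organoids was sequenced in 20 libraries. The authors deposited FPKM, and the submitters' processing notes name HISAT2 2.0.5 and mm10. How reads were counted, on which annotation and strand, and whether libraries were rescaled, is not given in the sources used here. Symbols and exon lengths came from GENCODE M21 (GRCm38) and promoters from RefSeq (GRCm38.p6). FPKM times exon length fell on whole reads for 97.9% to 98.7% of values up to 20 reads (tolerance 0.05), which gave the depth. Strand was not stated, so reads of antisense partners could not be separated.

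The 13162 genes that reached 1 FPKM in 2 or more libraries were tested on log2(FPKM + 1) with limma 3.58.1 (R 4.3.3): 1 mean per group, a term for submission, trended and robust moderated variances, and 9 residual and 3.29 prior degrees of freedom. A log2 difference of FPKM + 1 understates the change of low genes such as Trib3. Benjamini-Hochberg adjustment ran over all tested genes of a comparison. Hep-Org and undamaged liver come from the first submission only, so their comparison lies within it. The fit was tested on simulated data. Same-numbered replicates of different times did not pair: over 28 pairs of times the correlation of replicate differences was -0.381 to 0.472 (median -0.115), over 0.1 in 4.

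The members and gene lists were chosen with earlier results of these data known. Every member is described. From each wider list up to 3 genes with the largest absolute moderated t and a mean FPKM of at least 1 are named by rule, and any other gene named from a list was chosen after its values were seen. The genes most like an arm were the 5 with the highest correlation, leaving out predicted genes and pseudogenes. The comparison of 12 h with 14 to 21 d was added after seeing the data. Alternatives were another pseudocount (0.1), no filter, 2 rescalings, other block terms, the first submission alone, voom on the recovered reads, and each of 20 libraries left out in turn. Summaries were written with pandas 2.3.3, numpy 2.4.6 and scipy 1.17.1 under Python 3.11.15. A gene that the naming rule would give is not reported here.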

Additional observations from a re-analysis of the deposited data

How the results depend on the processing

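Over 28 alternative settings 0 of the 10 members were called between each of the 8 PHx times and undamaged liver. Between Hep-Org and undamaged liver the number of members called, 6, became 3 with no filter on low values, 2 after scaling to the same FPKM sum (Trib3 and Atf4, which is not among the 6) and 2 in the first submission alone, and 2 to 8 with a library left out. Against 14 to 21 d, Hep-Org had 1 call (in place of 2) in the first submission, 4 with voom, and 1 to 3 with a library left out. At 6 h the 2 calls became 0 at the same FPKM sum and 0 in the first submission, and 0 to 3 with a library left out. At 12 h the 3 calls became 0 with no filter, 0 at the same sum and 0 in the first submission, and 0 to 4 with a library left out. Over the 8 times, 1 gene in place of 0 was called at the same sum, 1 with median-ratio scaling, 1 with no replicate block, 1 with the replicate block by replicate number, and 0 to 1 with a library left out. Scaling to the same sum turned directions round: for Hep-Org against undamaged liver Xbp1 (1.16), Dnajb9 (0.10), Atf4 (1.60) and Ddit3 (1.13), against 14 to 21 d Hspa5 (0.080) and Xbp1 (0.91), for 6 h against 14 to 21 d Hspa5 (-0.050), Xbp1 (-0.18), Dnajb9 (-0.44) and Sdf2l1 (-0.17), and against undamaged liver Xbp1 (0.064 at 6 h, 0.25 at 12 h) and Herpud1 (0.050 at 12 h). Xbp1 at 6 h was also reversed with median-ratio scaling (0.00471) and in the first submission (0.30), as was Trib3 (-0.042). With 1 library left out, the ranges at 6 h against undamaged liver were -1.15 to 0.59 for Hspa5, -0.93 to 0.29 for Hsp90b1, -0.69 to 0.65 for Xbp1, -0.80 to 1.58 for Dnajb9, -2.00 to 0.50 for Sdf2l1, -0.61 to 2.65 for Creld2 and -0.042 to 0.64 for Trib3. At 12 h they were -0.20 to 1.54 for Hspa5, -0.30 to 1.33 for Hsp90b1, -0.73 to 0.61 for Xbp1, -0.49 to 1.89 for Dnajb9, -0.85 to 0.32 for Herpud1 and -0.57 to 1.94 for Sdf2l1. Against 14 to 21 d they were -0.10 to 0.42 for Dnajb9, -0.017 to 0.87 for Sdf2l1 and -0.51 to 0.17 for Trib3 at 6 h, -0.51 to 0.16 for Herpud1 and -0.34 to 0.045 for Trib3 at 12 h, and -0.044 to 0.45 for Atf4 and -0.12 to 0.41 for Ddit3 in Hep-Org. The causes were not tested. All genes called numbered 3095 between Hep-Org and undamaged liver (1846 to 10040 over the settings), 3263 between Hep-Org and 14 to 21 d (2108 to 8759), 2088 at 6 h against 14 to 21 d (14 to 2858), 1043 at 12 h (1 to 1480) and 1252 over the times (5 to 1785). At the same sum the Hep-Org calls against undamaged liver were 9218 higher and 822 lower, in place of 1352 and 1743. A lone library left in a group is assumed to vary like the other groups. Trib3 rests on 6 to 430 reads.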

Other observations

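Of 10 cytosolic heat shock genes, 0 were called in either direction between Hep-Org and undamaged liver (median -0.10) and 0 between Hep-Org and 14 to 21 d (median 0.34), beside medians of all genes of -0.03 and -0.02 and shares of all genes called higher and lower of 10.3% and 13.2%, and of 11.4% and 13.4%. At 6 h against 14 to 21 d 1 fell, Hsp90ab1 (-1.46, limma adjusted p = 0.00837), a cytosolic HSP90, beside 7.54% of all genes called lower. Of 7 mitochondrial chaperones and proteases, Lonp1 (1.01) rose and Trap1 (-1.05) fell in Hep-Org relative to undamaged liver. Relative to 14 to 21 d, 3 of the 7 were lower and 0 higher in Hep-Org, beside 13.4% and 11.4% of all genes. At 6 h against 14 to 21 d 2 of the 7 fell, Hspa9 (-1.28) and Hspd1 (-1.23), beside 7.54% of all genes. The single calls, 1 of 10 at 6 h and 1 of 7 each way between Hep-Org and undamaged liver, are near the shares of all genes. A test of the difference between these lists and the ER chaperones was not made.

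Transcripts known as substrates of IRE1-dependent decay moved both ways. Of 5 tested, Scara3 (1.69) rose and Sparc (-2.11) and Hgsnat (-1.53) fell in Hep-Org relative to undamaged liver, beside 10.3% of all genes higher and 13.2% lower. Sparc is also a gene of mesenchymal cells, and 9 stellate and mesenchymal markers summed to 1.06 to 3.18 FPKM in Hep-Org, against 3.06 to 14.5 in undamaged liver, whose part in the value of Sparc was not tested. At 6 h Col6a1 alone of the 5 rose relative to undamaged liver (1.10, limma adjusted p = 0.0155), beside 4.62% of all genes called higher. The 9 stellate and mesenchymal markers summed to 29.2 to 35.7 FPKM at 6 h, against 3.06 to 14.5 in undamaged liver. Their part in the value of Col6a1 was not tested.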
